A study of Mus musculus with 6 samples.

Results

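Mechanosensitive ion channels were followed in B16F10 tumors of the mouse footpad and flank skin through 9 genes: Piezo1, Piezo2, Trpv2, Trpv4, Trpm7, Trpc1, Tmem63a, Tmem63b and Kcnk2. They were taken by gene symbol from the 45777 genes of the deposited matrix, each symbol matched 1 row, and all 9 passed the filter on low counts that left 17210 genes for testing. B16F10 is a melanoma line of C57BL/6 mice. It was grafted into the hind footpad, which carries the weight of the animal, or into the skin of the flank, and total RNA from 3 tumors of each site was sequenced, 1 library per tumor. The labels give Foxn1-/- hosts, which lack T cells, aged 8 weeks, for all 6 tumors, whereas the text of the paper uses both C57BL/6J and Foxn1-null hosts and names none for the sequenced tumors. The methods of the paper speak of B16F10 cells isolated at the graft sites, without naming how, and the labels state that tumors were removed and their RNA extracted. Markers of host cells were present in all 6 libraries, so the values are treated as bulk values, in which a smaller share of cells of one type cannot be told apart from less RNA per cell.

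Mechanosensitive channels are pores in a membrane that open when the membrane is stretched, bent or pulled through its attachments, and let calcium, sodium or potassium ions cross. Piezo1 and Piezo2 form large trimeric channels that open rapidly under membrane tension and pass calcium. Piezo2 is the touch channel of Merkel cells and sensory neurons, and Piezo1 serves blood vessels, red cells, epithelia and many tumor cells. Several TRP channels pass calcium after swelling, heat, lipids or stretch, the TMEM63 proteins open at high membrane tension, and the K2P channel encoded by Kcnk2 opens with stretch to let potassium out of the cell. The question put to the data was how the RNA of these channels differed between a site under load and a site with little load.

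The genes lie on 8 chromosomes of GRCm38 (RefSeq annotation of GRCm38.p6), and all are protein coding. Piezo1 lies at chr8:122481698-122551329 on the minus strand, Trpv4 at chr5:114622152-114658435 on the minus strand, Trpm7 at chr2:126791558-126876261 on the minus strand and Trpv2 at chr11:62574486-62600305 on the plus strand. Trpc1 lies at chr9:95705072-95750386 on the minus strand, Tmem63b at chr17:45660172-45686343 on the minus strand, and Tmem63a and Kcnk2 share chromosome 1, at chr1:180942286-180975106 on the plus strand and chr1:189207930-189402782 on the minus strand. In the GENCODE annotation, 24.6% of the exon bases of Piezo1 also lie in exons of Ctu2, a tRNA thiolation gene read from the opposite strand, and the sources used here do not state whether reads were counted by strand. Ctu2 had between 741 and 1628 counts per tumor, against 7754 to 27119 for Piezo1. Smaller overlaps with opposite-strand genes cover 12.2% of the exon bases of Kcnk2, 5.65% and 2.08% of those of Tmem63b, and 3.50% of those of Tmem63a.

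The 250 bases before the annotated start of Piezo1, Trpv4 and Trpm7 are shown because Piezo1 had the highest level of the channels in the footpad tumors, Trpv4 had the largest difference between the sites among the genes with an entry in the RefSeq table of promoters, and Trpm7 had a high level and a small difference. Each is written 5′ to 3′ on the strand of the gene, from GRCm38.p6, with CpG dinucleotides in capitals. The Trpv4 window precedes an annotated start that lies 14 bases inside the outer end of the gene given above, and the other 2 windows end at the outer end.
Piezo1, chr8:122551330-122551579, minus strand: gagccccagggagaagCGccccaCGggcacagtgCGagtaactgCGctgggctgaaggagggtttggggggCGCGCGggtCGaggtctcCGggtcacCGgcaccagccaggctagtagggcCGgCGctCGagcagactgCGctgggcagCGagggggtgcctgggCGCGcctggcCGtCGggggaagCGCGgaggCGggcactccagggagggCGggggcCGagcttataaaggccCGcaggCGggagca
Trpv4, chr5:114658422-114658671, minus strand: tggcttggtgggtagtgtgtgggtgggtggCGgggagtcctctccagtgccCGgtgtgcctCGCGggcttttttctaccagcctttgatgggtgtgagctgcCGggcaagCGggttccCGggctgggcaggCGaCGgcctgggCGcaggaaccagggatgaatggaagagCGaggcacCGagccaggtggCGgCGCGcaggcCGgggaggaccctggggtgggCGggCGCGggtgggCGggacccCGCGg
Trpm7, chr2:126876262-126876511, minus strand: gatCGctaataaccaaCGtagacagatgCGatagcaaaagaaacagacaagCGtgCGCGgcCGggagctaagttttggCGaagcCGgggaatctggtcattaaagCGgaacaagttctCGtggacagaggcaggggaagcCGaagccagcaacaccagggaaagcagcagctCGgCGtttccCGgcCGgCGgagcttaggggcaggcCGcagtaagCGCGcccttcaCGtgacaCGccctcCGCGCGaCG
All 3 windows were rich in CpG, with 26 in Piezo1, 22 in Trpv4 and 26 in Trpm7, against a median of 6 over 32817 windows of the same length, of which 17.9% held 20 or more. Neither the TEAD core GGAATG nor the AP-1 site TGANTCA, searched on both strands, was in these 3 windows. Among the windows of the 8 genes with an entry, the TEAD core was in 1 of 3 windows of Trpv2 and 1 of 4 windows of Kcnk2, and the AP-1 site was in 1 window of Kcnk2. These letters are in 12.6% and 6.75% of all windows, and a match is a description of the sequence only. Piezo2 had no entry.

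Between 46529649 and 66364366 reads were counted on genes per tumor, and replicate tumors were further apart than counting noise alone would put them (chi-square per gene from 58.6 to 511). Values are given as CPM, counts per 1e+06 reads of a library size scaled by the TMM method, and sites were compared with the quasi-likelihood test of edgeR over 17210 genes with Benjamini-Hochberg adjustment. Log2 fold changes are footpad minus flank skin. The study injected flank and footpad of the same animals in its B16F10 grafts and gives 3 mice for these data, but no source states which footpad and flank tumor shared an animal, so a p-value here measures the spread between these 6 tumors. The melanocyte lineage was present at both sites, with 9 markers such as Dct and Pmel summing to 10210 to 18896 CPM in the footpad and 15001 to 25734 CPM in the flank. Markers of other cells differed between the sites. All 10 fibroblast markers had their 3 footpad values above their 3 flank values, which 17.5% of all genes tested also showed. The fibroblast sum was 2765 to 3772 CPM against 95.9 to 433 CPM. Endothelial markers summed to 310 to 344 CPM against 171 to 210 CPM, with 7 of 9 higher in every footpad tumor (background 17.5%). Footpad replicate 2 stood apart in keratinocyte markers, at 665 CPM against 3.38 to 29.7 CPM in the other 5 tumors, and in skeletal muscle markers, at 557 CPM against 4.59 to 64.6 CPM. Neutrophil markers were high in footpad replicates 1 and 3, at 367 and 178 CPM, and between 4.76 and 30.4 CPM elsewhere. Schwann cell markers (388 to 432 CPM against 396 to 454 CPM) and mural cell markers (84.2 to 161 CPM against 48.6 to 95.1 CPM) overlapped between footpad and flank, and sensory neuron markers summed to 272 to 351 CPM against 192 to 232 CPM, nearly all of it from Tubb3 and Prph.

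Of the 9 channels, Piezo2 alone passed the test, and it was higher in the footpad tumors (1 of 9 higher, against a background of 3.43% of all genes tested). None was lower (background 1.44%), and at an unadjusted p under 0.05 edgeR had 5 higher (background 14.8%) and 0 lower (background 10.5%). With the further demand of a fold change of 2 or more, Piezo2 remained the only one called (background 2.89%). At an adjusted p under 0.1, 3 channels were higher, Piezo2, Trpv4 and Piezo1 (background 7.98%). DESeq2, the tool of the study, called 4 of the 9 higher, Piezo1, Piezo2, Trpv4 and Tmem63a (background 9.82%), and 0 lower (background 6.08%). In 6 of the 9, namely Piezo1, Piezo2, Trpv2, Trpv4, Trpc1 and Tmem63a, every footpad tumor lay above every flank tumor, which 17.5% of all genes tested also showed. In none did every footpad tumor lie below every flank tumor, which 14.9% of all genes showed. The median log2 fold change of the 9 was 0.47, and that of all genes tested was -0.0042.

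**Figure D1:**
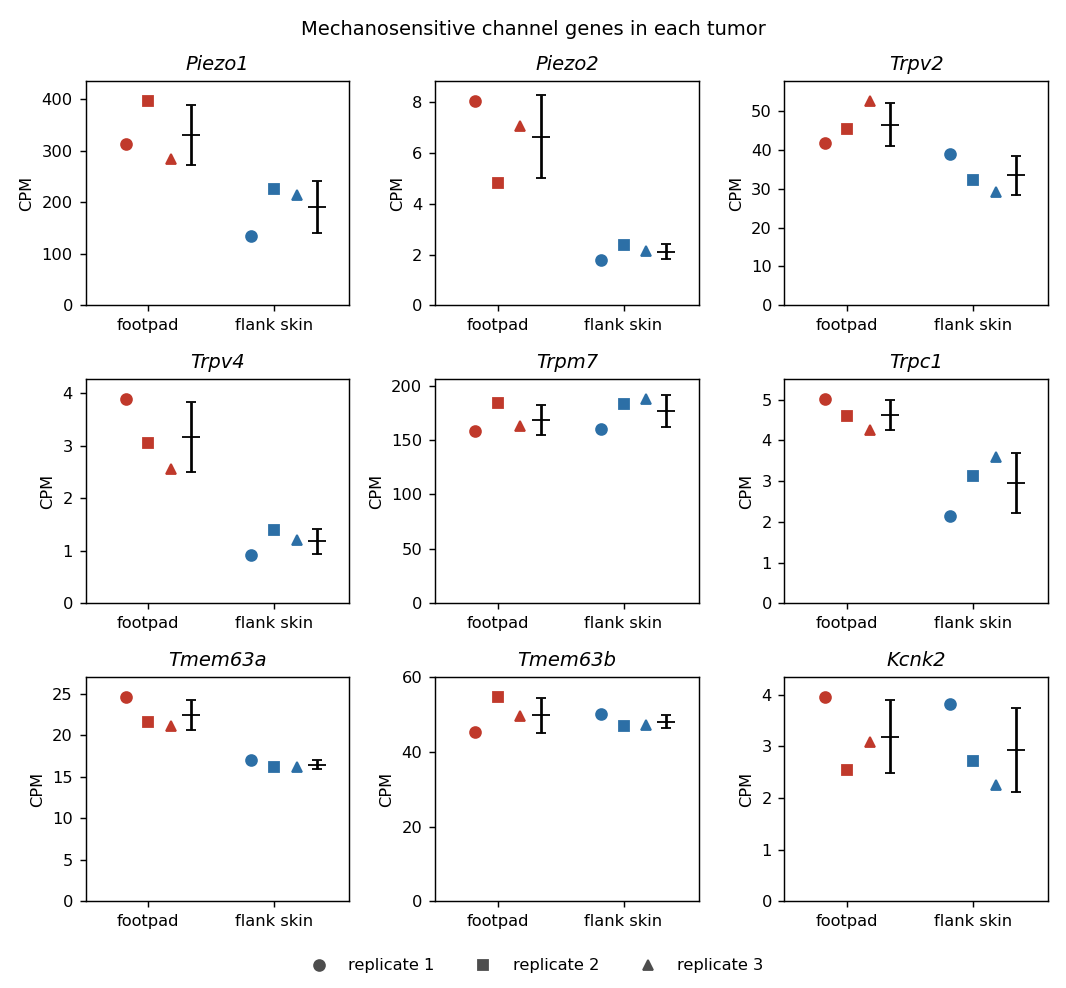
CPM of each of the 9 channel genes (vertical axes from 0) in the 3 footpad tumors (red) and 3 flank skin tumors (blue), with the mean and SD in black at the right of each group. The footpad points lie above all flank points for Piezo1, Piezo2, Trpv2, Trpv4, Trpc1 and Tmem63a, and the groups overlap for Trpm7, Tmem63b and Kcnk2.

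Piezo2 was measured at 8.04, 4.84 and 7.08 CPM for footpad replicates 1, 2 and 3 and 1.79, 2.39 and 2.16 CPM for flank replicates 1, 2 and 3. The lowest footpad tumor therefore held more than the highest flank tumor, and the footpad tumors varied more among themselves (6.65 ± 1.64 CPM, SD, n = 3) than the flank tumors did (2.12 ± 0.303 CPM, SD, n = 3). Between sites the difference on the log2 scale was 1.65 (SE 0.29, edgeR adjusted p = 0.0271), a fold of 3.14, and its 95% interval on the log2 scale ran from 0.98 to 2.32. The counts behind it were 332 to 358 reads per footpad tumor and 104 to 140 per flank tumor, so counting error alone was at most 9.81% of a value. The call was lost without any 1 of 5 tumors: leaving out footpad replicate 1 or 3 gave an edgeR adjusted p of 0.103 or 0.125, leaving out flank replicate 1, 2 or 3 gave 0.0611, 0.0523 or 0.103, and only leaving out footpad replicate 2 kept it, at 0.0225, with log2 fold changes between 1.49 and 1.83 throughout. With the replicate number as a block, which the sources do not tie to animals, the difference was 1.63 and the edgeR adjusted p was 0.106.

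Piezo2, which lies at chr18:63010213-63387716 on the minus strand, gave little RNA at both sites. Per transcript length it was 0.402 to 0.582 FPKM in the footpad and 0.128 to 0.204 FPKM in the flank, the lowest level of the 9 channels at each site. Merkel cell markers were low, and the 6 of them together summed to 0.306 to 0.817 CPM in the footpad and 0.687 to 1.16 CPM in the flank. Atoh1, the factor that specifies Merkel cells, had 0 counts in the 3 footpad tumors and 4, 0 and 2 counts in the flank tumors, and Krt18, Isl1 and Chga had at most 6, 9 and 4 counts in a tumor. The other 2 markers went in opposite directions: Krt8, a keratin of simple epithelia as well as of Merkel cells, had 11, 12 and 12 counts in the footpad tumors and 0 in each flank tumor (edgeR adjusted p = 0.0397), and Krt20, a keratin of Merkel cells and gut epithelium, had 18, 9 and 24 counts in the footpad tumors and 50, 53 and 41 in the flank tumors (edgeR adjusted p = 0.208). The part of Merkel cells in the values of Piezo2 was not tested. Calca, which sensory neurons use to make the peptide CGRP, had 0 counts in all 6 tumors, which allows up to 0.0673 CPM in the shallowest library. Scn10a and Scn11a, sodium channels of sensory neurons, had at most 15 and 4 counts in a tumor. The summed fibroblast and endothelial markers were higher in every footpad tumor, as Piezo2 was, and so were the macrophage and sensory neuron sums. Of the single markers, this held for 10 of 10, 7 of 9, 4 of 9 and 2 of 8 in that order (background 17.5%). The part of these cells in the difference of Piezo2 was not tested.

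Piezo1 was measured at 312, 396 and 285 CPM for footpad replicates 1, 2 and 3 and 134, 226 and 213 CPM for flank replicates 1, 2 and 3. The groups did not overlap, and the nearest tumors were flank replicate 2 at 226 CPM and footpad replicate 3 at 285 CPM. Flank replicate 1 lay well below the other 2 flank tumors. The mean was 331 ± 57.7 CPM in the footpad and 191 ± 50.1 CPM in the flank (SD, n = 3 each). The log2 fold change of 0.79 (SE 0.23) missed the threshold in edgeR (adjusted p = 0.0898) and passed it in DESeq2 (0.79, SE 0.24, adjusted p = 0.011), and the interval of the fold in edgeR ran from 1.19 to 2.52. The highest value was that of footpad replicate 2, the tumor with 665 CPM of keratinocyte markers and 557 CPM of muscle markers. Without it the log2 fold change was 0.64 (edgeR adjusted p = 0.162), and without flank replicate 1 it was 0.59 (adjusted p = 0.113).

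The 3 genes most like each Piezo gene over the 6 tumors were not the same. For Piezo1 the 3 highest Pearson coefficients of log2 CPM were with Gsdma, a gasdermin of skin epithelium (r = 0.997), Mpzl3, a membrane protein of skin and hair follicles (r = 0.995), and Gipc2, a scaffold protein (r = 0.994). All 3 were scarce, and Gsdma, for example, had 1.08, 2.51 and 0.592 CPM in the footpad tumors and 0, 0.239 and 0.128 CPM in the flank tumors, highest in footpad replicate 2 as Piezo1 was. For Piezo2 they were Stambpl1, a deubiquitinase (r = 0.999), Metrnl, a secreted protein (r = 0.999), and Cdyl2, a chromodomain protein (r = 0.998). These followed the footpad order of Piezo2, with values for Metrnl of 21.6, 15.8 and 20.5 CPM in the footpad and 9.24, 10.9 and 10.6 CPM in the flank tumors. A coefficient over 0.95 with Piezo1 was reached by 182 of 17209 other genes and with Piezo2 by 516, and because the tumors fall into 2 sites such coefficients describe the pattern of 6 libraries and carry no test.

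The TRP channels did not move as a block. Trpv4, a calcium channel opened by swelling, warmth and lipid products of stretch, was measured at 3.88, 3.06 and 2.55 CPM for footpad replicates 1, 2 and 3 and 0.931, 1.40 and 1.21 CPM in the flank replicates. The groups did not overlap, with the lowest footpad tumor above the highest flank tumor. Its log2 fold change was 1.42 (SE 0.32), close to that of Piezo2, and narrowly missed the threshold in edgeR (adjusted p = 0.0514), while DESeq2 (adjusted p = 0.0018), edgeR on genes with at least 10 counts in every tumor (0.0366) and limma on log2(FPKM + 1) (0.0344) called it. The counts were few, from 125 to 210 reads per footpad tumor and from 54 to 82 per flank tumor. Keratinocytes and endothelium also express Trpv4. Summed keratinocyte markers were 29.7, 665 and 8.27 CPM and summed endothelial markers 344, 310 and 328 CPM in footpad replicates 1, 2 and 3, and the part of either cell type in the values of Trpv4 was not tested.

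Trpv2, a relative of Trpv4 found in macrophages, neurons and muscle, was measured at 41.6, 45.2 and 52.3 CPM for footpad replicates 1, 2 and 3 and 38.9, 32.1 and 29.2 CPM in the flank replicates. The sites touched but did not cross, since flank replicate 1 lay just under footpad replicate 1. It differed by 0.47 on the log2 scale (SE 0.16, edgeR adjusted p = 0.119). Macrophage markers summed to 205 to 216 CPM in the footpad and 150 to 195 CPM in the flank. Of the 9 markers, 4 were higher in every footpad tumor, as 17.5% of all genes tested were. Mertk alone held 79.2 to 112 CPM of the footpad sums and 89.6 to 134 CPM of the flank sums, with a log2 fold change of -0.19. The log2 fold change was above 0 in 8 of the 9, and edgeR called 1 of 9 higher (background 3.43%). The part of macrophages in the values of Trpv2 was not tested.

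Trpc1, a subunit of calcium channels linked to stretch and store release, had 5.01, 4.59 and 4.27 CPM in footpad replicates 1, 2 and 3 and 2.14, 3.13 and 3.60 CPM in the flank replicates. No footpad tumor fell among the flank tumors, but flank replicate 3 lay close to footpad replicate 3. The log2 fold change of 0.65 (SE 0.28, edgeR adjusted p = 0.203) did not pass the test by any tool run, and its 95% interval, -0.0095 to 1.30, just included 0.

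Trpm7 is a channel for magnesium and calcium joined to a protein kinase, and most cells express it. It was measured at 158, 184 and 163 CPM for footpad replicates 1, 2 and 3 and 160, 183 and 187 CPM in the flank replicates, so that the sites overlapped over most of their range. The log2 fold change was -0.07 (SE 0.13, edgeR adjusted p = 0.774), and with 7043 to 12614 reads per tumor the 95% interval of the fold was 0.765 to 1.18. Differences within that interval, in either direction, are compatible with the values of these 6 tumors.

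The TMEM63 pair behaved unlike each other. Tmem63a was measured at 24.6, 21.7 and 21.1 CPM for footpad replicates 1, 2 and 3 and 17.1, 16.2 and 16.1 CPM in the flank replicates, with narrow spread at each site and no overlap. The log2 fold change of 0.45 (SE 0.14) missed the threshold in edgeR (adjusted p = 0.101) and passed it in DESeq2 (adjusted p = 0.0338). Tmem63b, its paralog, was measured at 45.3, 54.6 and 49.6 CPM in the footpad and at 50.2, 47.0 and 47.2 CPM in the flank, and the highest and the lowest value were both footpad tumors. Its log2 fold change was 0.05 (SE 0.12, edgeR adjusted p = 0.833), with a 95% interval of the fold from 0.847 to 1.27. Per transcript length, the ratio of Tmem63b to Tmem63a was 1.84, 2.53 and 2.40 in the footpad tumors and 2.96, 2.95 and 2.96 in the flank tumors, lower in every footpad tumor.

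Kcnk2, the stretch-opened potassium channel of the set, was measured at 3.95, 2.54 and 3.08 CPM for footpad replicates 1, 2 and 3 and 3.83, 2.72 and 2.25 CPM in the flank replicates. Both sites spanned nearly the same range. Kcnk2 differed by 0.12 on the log2 scale (SE 0.32, edgeR adjusted p = 0.847), and the 95% interval of the fold, 0.648 to 1.82, extended to both sides of 1. The counts were 141 to 222 reads per tumor, which puts counting error at no more than 8.42% of a value, and the biological coefficient of variation fitted for Kcnk2 was 0.349. Its sign turned when single tumors were left out, to -0.06 without footpad replicate 1 and -0.04 without flank replicate 3.

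**Figure D2:**
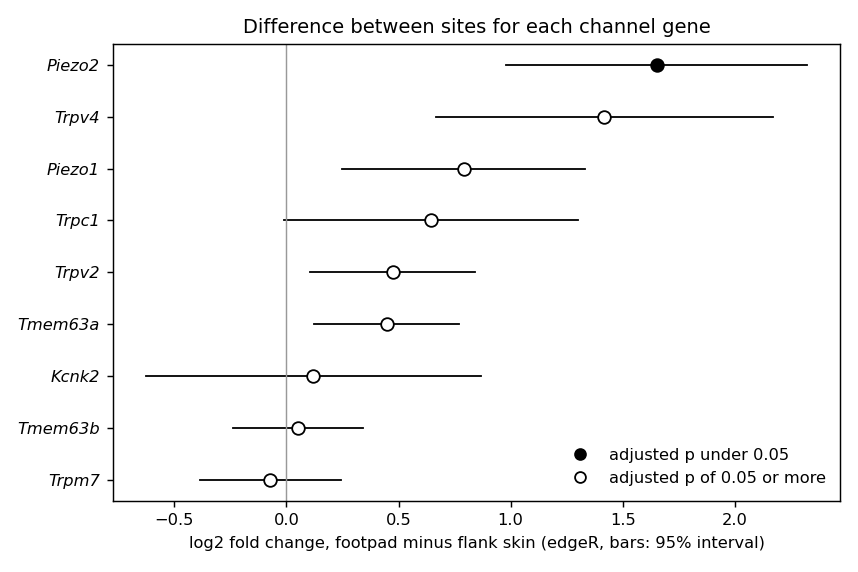
Log2 fold change between footpad and flank skin tumors for each channel gene (points) with its 95% interval from edgeR (bars), 3 tumors per site, filled where the adjusted p was under 0.05. Only Piezo2 is filled, at 1.65; Trpv4 at 1.42 has the second largest difference, and the intervals of Trpc1, Kcnk2, Tmem63b and Trpm7 include 0.

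Levels of different channels were compared as deposited FPKM values, which are scaled for transcript length. In the footpad tumors Piezo1 led with 31.4 to 46.3 FPKM, above Trpm7 at 18.2 to 24.2 FPKM in all 3 tumors. Tmem63b (11.3 to 15.7 FPKM) and Trpv2 (11.4 to 15.3 FPKM) overlapped and came next, followed without overlap by Tmem63a at 5.74 to 6.21 FPKM. Trpc1, Trpv4 and Kcnk2 overlapped in a low group between 0.630 and 0.987 FPKM, and Piezo2 was lowest. In the flank tumors the order at the top was not the same: Trpm7 (18.4 to 24.9 FPKM) and Piezo1 (13.4 to 26.8 FPKM) overlapped, and Piezo1 was above Trpm7 in 1 of 3 tumors. Below them, Tmem63b (12.5 to 13.9 FPKM) overlapped with Piezo1, and Trpv2 (8.32 to 10.5 FPKM) and Tmem63a (4.21 to 4.73 FPKM) followed without overlap. Kcnk2 and Trpc1 overlapped, as did Trpc1 and Trpv4, and Piezo2 lay below Trpv4 without overlap.

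**Figure D3:**
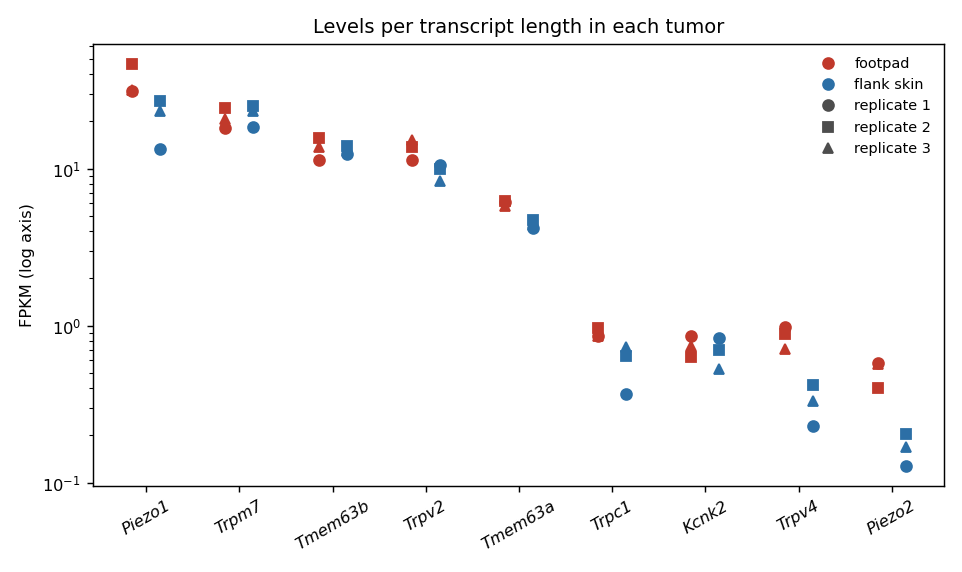
FPKM of the 9 channels on a log axis, ordered by their mean over all tumors, with 3 footpad tumors in red and 3 flank skin tumors in blue. Piezo1 is above 31 FPKM in all footpad tumors, Trpm7 is near 20 FPKM at both sites, and Trpc1, Kcnk2, Trpv4 and Piezo2 are all under 1 FPKM.

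Within each tumor the balance between channels can be read without a scale between libraries. The ratio of Piezo1 to Trpm7, in FPKM, was 1.73, 1.91 and 1.53 in the footpad tumors and 0.729, 1.08 and 0.995 in the flank tumors, higher in every footpad tumor. Piezo1 made up 35.2% to 42.5% of the summed FPKM of the 9 channels in the footpad and 22.1% to 32.5% in the flank, and Trpm7 made up 22.2% to 23.0% and 30.3% to 31.6%. The ratio of Piezo1 to Piezo2 was 53.9, 115 and 56.1 in the footpad tumors and 104, 132 and 138 in the flank tumors, and the sites overlapped because footpad replicate 2 had the most Piezo1 and the least Piezo2 of its site. The ratio of Trpv2 to Trpv4 was 11.5, 15.4 and 21.5 in the footpad tumors and 45.9, 23.9 and 24.9 in the flank tumors. These ratios are descriptions and were not tested.

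Further genes of the same families and of the calcium response were described from 5 lists with 89 genes, of which 60 passed the filter. Together 7 of the 60 were higher in the footpad tumors (11.7%, against the background of 3.43%) and 0 were lower, with 21 higher and 2 lower at an unadjusted p under 0.05 (background 14.8% and 10.5%). DESeq2 called 12 higher and 1 lower (background 9.82% and 6.08%). The same backgrounds apply to each of the 5 lists below. The median log2 fold change of the 60 was 0.37, beside -0.0042 for all genes tested.

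Of the proteins known to act on Piezo channels, 4 of 5 listed were tested, and edgeR called 0, with 2 at an unadjusted p under 0.05, both higher. Tmem150c, which slows the closing of Piezo channels, had the largest log2 fold change, 1.12 (SE 0.48, edgeR adjusted p = 0.194), at levels under 1 CPM in all tumors. Stom, a membrane protein of lipid rafts, was the 1 gene of the list that DESeq2 called and is named here after its values were seen, with 39.8, 43.3 and 44.2 CPM in the footpad and 33.5, 23.0 and 23.5 CPM in the flank.

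Of the other TRP channels, 13 of 25 were tested. EdgeR called 0 higher and 0 lower, with 6 higher and 1 lower at an unadjusted p under 0.05, and DESeq2 called 3 higher, Mcoln2, Trpm2 and Trpm5, and 1 lower, Mcoln3, all named after their values were seen. The largest log2 fold change belonged to Trpm2, an oxidant-sensitive channel of neutrophils and macrophages, at 3.59 (SE 1.18, edgeR adjusted p = 0.115). Its values were 4.38, 0.131 and 1.47 CPM in footpad replicates 1, 2 and 3 and 0.0862, 0.325 and 0.0799 CPM in the flank replicates. Footpad replicate 2 thus lay among the flank tumors, and the same tumor had 6.87 CPM of summed neutrophil markers against 367 and 178 CPM in replicates 1 and 3. The part of neutrophils in the values of Trpm2 was not tested.

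Of the other K2P potassium channels, 3 of 13 were tested, and edgeR called 1 higher and 0 lower, with 2 higher and 0 lower at an unadjusted p under 0.05 and 2 higher and 0 lower by DESeq2. Kcnk13, a K2P channel of microglia and other cells, had 2.67, 5.40 and 3.76 CPM in the footpad and 0.931, 1.15 and 0.975 CPM in the flank, a log2 fold change of 1.95 (SE 0.35, edgeR adjusted p = 0.0296). Every footpad tumor lay above every flank tumor. Kcnk6, a K2P channel named after its values were seen, was the other gene that DESeq2 called, with 2.24, 2.48 and 2.53 CPM in the footpad and 0.259, 1.18 and 0.336 CPM in the flank (edgeR adjusted p = 0.0889), and limma on log2(FPKM + 1) called Kcnk6 and not Kcnk13.

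Of the other channels linked to force or cell swelling, 17 of 23 were tested, 2 were higher and 0 lower, with 4 higher and 0 lower at an unadjusted p under 0.05 and the same 2 higher and 0 lower by DESeq2. Tmc7, a member of the family of the hair cell transduction channel, had 4.78, 4.29 and 5.02 CPM in the footpad and 1.79, 1.57 and 1.20 CPM in the flank, a log2 fold change of 1.62 (SE 0.28, edgeR adjusted p = 0.027). Lrrc8a, the obligatory subunit of the swelling-activated anion channel, had 61.4, 49.0 and 55.8 CPM in the footpad and 31.0, 36.3 and 37.5 CPM in the flank, a log2 fold change of 0.67 (SE 0.14, edgeR adjusted p = 0.0445). Both were higher in every footpad tumor. The partner subunits of Lrrc8a, namely Lrrc8b, Lrrc8c, Lrrc8d and Lrrc8e, did not pass, with log2 fold changes of -0.20, 0.39, 0.49 and 1.52.

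Of the genes that store, pump or read calcium in the cell, all 23 were tested, 4 were higher and 0 lower, with 7 higher and 1 lower at an unadjusted p under 0.05 and 4 higher and 0 lower by DESeq2. Nfatc1, a transcription factor that calcineurin sends to the nucleus when calcium is high, had 20.7, 21.5 and 14.5 CPM in the footpad and 3.88, 6.64 and 6.34 CPM in the flank, a log2 fold change of 1.75 (SE 0.27, edgeR adjusted p = 0.0218). Atp2b4, a plasma membrane pump that exports calcium, had 48.0, 29.6 and 29.2 CPM in the footpad and 11.1, 8.35 and 4.20 CPM in the flank, a log2 fold change of 2.18 (SE 0.37, edgeR adjusted p = 0.0269). Capn2, the large subunit of a calcium-activated protease, had 213, 205 and 214 CPM in the footpad and 104, 125 and 127 CPM in the flank, with a log2 fold change of 0.83 (SE 0.13, edgeR adjusted p = 0.0237). Orai2, a channel for calcium entry after store release, had 25.1, 30.1 and 23.9 CPM in the footpad and 17.2, 15.0 and 15.9 CPM in the flank, with a log2 fold change of 0.72 (SE 0.15, edgeR adjusted p = 0.0428). The calcineurin subunits Ppp3ca, Ppp3cb, Ppp3cc and Ppp3r1 did not pass, with log2 fold changes between -0.27 and -0.12. Rcan1, a regulator of calcineurin, had a log2 fold change of 0.31 (SE 0.16, edgeR adjusted p = 0.277).

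**Figure D4:**
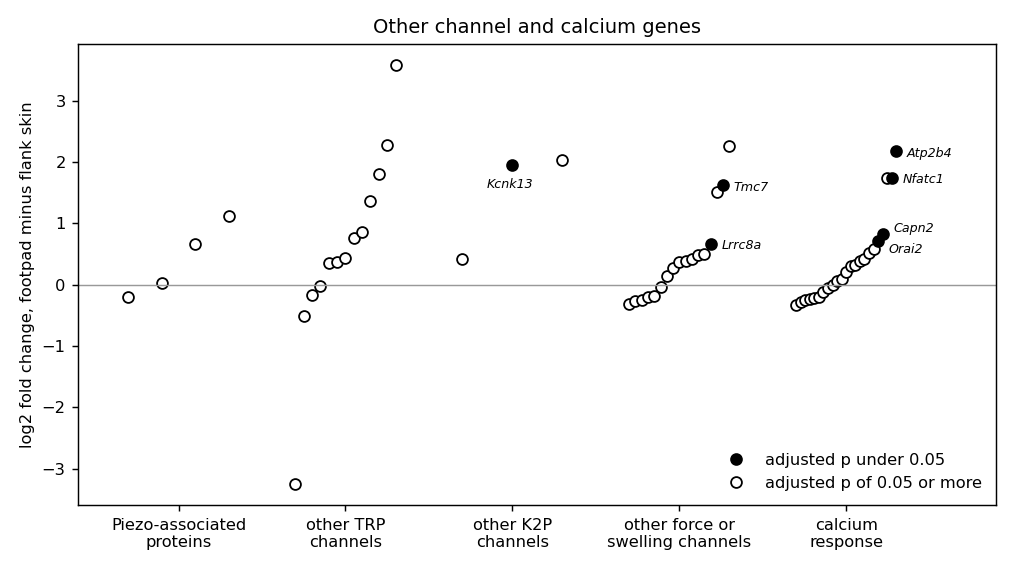
Log2 fold change, footpad minus flank skin, of the 60 tested genes of 5 lists of channels and calcium genes, 1 point per gene, filled and named where the edgeR adjusted p was under 0.05. The 7 filled points, Kcnk13, Tmc7, Lrrc8a, Nfatc1, Atp2b4, Capn2 and Orai2, are all above 0.

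The markers of host tissue and the 2 Piezo genes did not all share one order over the footpad tumors. The endothelial sum had the same order as Piezo2 at both sites, but its markers taken singly did not share that order. Vwf, the largest of them, had 132, 172 and 106 CPM in footpad replicates 1, 2 and 3, highest where Piezo2 was lowest. Pecam1 had 67.5, 40.1 and 68.8 CPM in the same tumors. Cdh5 had the order of Piezo2 in the footpad but not in the flank. Piezo1 was highest in replicate 2 and Piezo2 was lowest there, while the fibroblast sum was 2765, 2789 and 3772 CPM in replicates 1, 2 and 3 and the endothelial sum was 344, 310 and 328 CPM. In the flank, replicate 2 had the highest value of both Piezo1 and Piezo2 and also the highest fibroblast sum, 433 CPM against 95.9 and 124 CPM, and the highest endothelial sum, 210 CPM against 171 and 183 CPM. The median log2 fold change was 3.23 over the 10 fibroblast markers and 1.20 over the 9 endothelial markers, beside 1.65 for Piezo2 and 0.79 for Piezo1. The part of fibroblasts or endothelium in the difference of any channel was not tested.

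**Figure D5:**
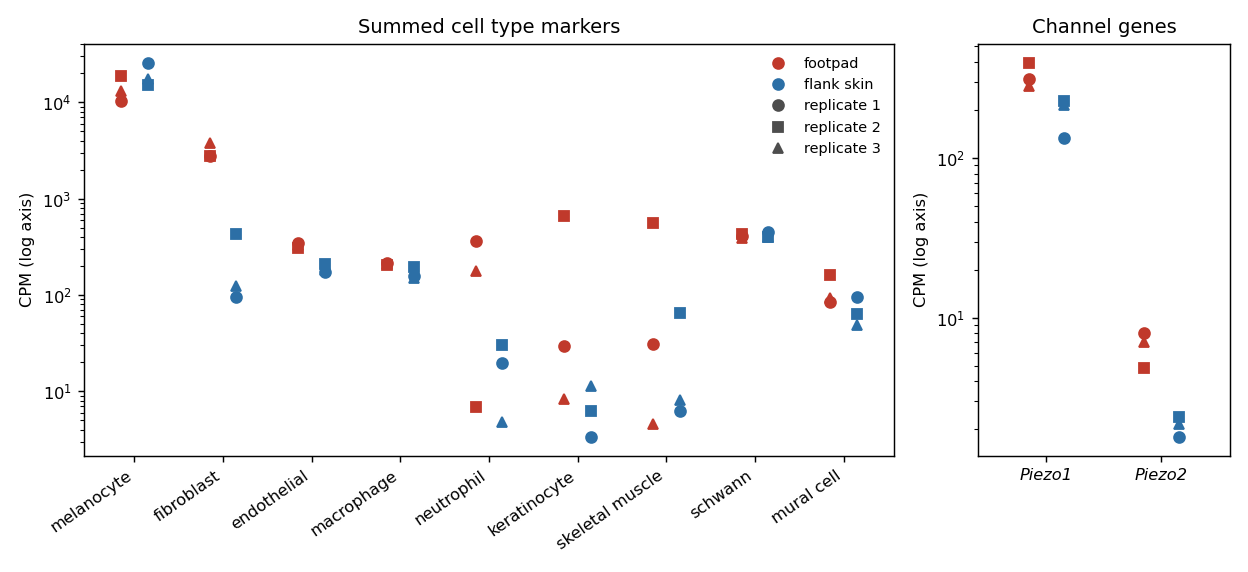
Summed CPM of 9 marker lists (left) and CPM of Piezo1 and Piezo2 (right) on log axes, with 3 footpad tumors in red and 3 flank skin tumors in blue and the marker shape giving the replicate. Fibroblast sums are 2765 to 3772 CPM in the footpad against 95.9 to 433 CPM in the flank, and footpad replicate 2 (square) stands apart in keratinocyte and muscle markers, has the highest Piezo1 and the lowest footpad Piezo2.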

How the data were processed

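RNA of 3 footpad and 3 flank skin B16F10 tumors was analysed, grouped by the sample labels. Per the labels and the methods of the paper, the authors checked reads with FastQC 0.11.7, trimmed them with Trimmomatic and aligned them to mm10 with HISAT2 2.1.0. The authors deposited raw counts of reads on each gene and, beside them, FPKM values scaled by them for length and depth. The counting program, its use of strand and the criterion of the filter are not given in the sources used here.

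Sites were compared with edgeR 4.0.16 in R 4.3.3 (scaling by TMM, filterByExpr at its defaults, glmQLFit, glmQLFTest, Benjamini-Hochberg over 17210 genes). The SE was obtained from the log2 fold change and the root of its F statistic, and the 95% interval uses the degrees of freedom of that test. Coefficients between genes were taken on log2 CPM, where the prior count was 1. Floors of 3 counts cover counting error only. Between 46529649 and 66364366 reads were counted on genes per tumor, and the common biological coefficient of variation was 0.338. The fits were tested on simulated data with less variation than that common value and with larger fold changes than any channel showed. Recovery of changes as small as those of the channels was therefore not tested.

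The 9 channels, the 5 further channel and calcium lists and the 11 marker lists were chosen with earlier results of these data known, so that a list is described by counts and medians and has no test. Named are all 9 channels, of each further list the genes at an adjusted p under 0.05 or, where none passed, the gene with the largest log2 fold change, and for both Piezo genes the 3 genes with the most similar pattern. Lrrc8 and calcineurin subunits, Rcan1, Ctu2, Mertk and genes called by DESeq2 alone were named after their values were seen. Alternatives were DESeq2 1.42.0, upper-quartile scaling, no filter on low counts (at least 1 read), at least 10 counts in every tumor, limma 3.58.1 on log2(FPKM + 1) and log2(FPKM + 0.1), an adjusted p under 0.1, the replicate number as a block, and leaving out each tumor in turn. For the further lists these were added after seeing the data. Positions and promoter sequences came from RefSeq and overlaps from GENCODE M21, both on GRCm38. All 9 gene identifiers matched RefSeq, and 8 matched a promoter entry. Figures were drawn in Python 3.11.15 with matplotlib 3.10.9.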

Additional observations from a re-analysis of the deposited data

How the results depend on the processing

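The count of channels called higher was 1, and it was 4 with DESeq2, 2 with at least 10 counts in every tumor, 2 with limma on log2(FPKM + 1), 3 at an adjusted p under 0.1, 0 to 1 when each tumor was left out in turn, and 1 under upper-quartile scaling, without a filter and with limma on log2(FPKM + 0.1). Leaving out footpad replicate 1 or 3 or flank replicate 1, 2 or 3 took the count to 0. Those fits called 26, 0, 272, 441 and 36 of all genes higher, against 713 without footpad replicate 2. Genes higher were 590 of 17210 in the main fit, 1374 at an adjusted p under 0.1 and 1685 of 17158 with DESeq2. They were 714 of 14826 with at least 10 counts in every tumor and 521 of 28849 without a filter. Limma called 577 on log2(FPKM + 1) and 689 on log2(FPKM + 0.1), and upper-quartile scaling gave 591. No channel was called lower under any of these alternatives. The 6 channels whose tumors did not overlap between the sites were 6 under upper-quartile scaling and in FPKM. They were also 6 without each tumor, where the count could not fall. Deviations of same-numbered tumors from their site means had coefficients of 0.0607, -0.0985 and -0.118. These cannot decide whether the numbers 1 to 3 pair tumors of one animal, since such tumors need not deviate alike. With the replicate block edgeR called 0 channels, 0 of the further genes and 0 genes in all. The 7 further channel and calcium genes called higher were 12 with DESeq2 and 0 to 7 without each tumor, being 0 without footpad replicate 1, footpad replicate 3 or flank replicate 3 and 3 without flank replicate 2. The number called lower was 0, and 1 with DESeq2 and 1 with limma on log2(FPKM + 0.1). Without each tumor in turn the log2 fold change of Kcnk2 ran from -0.064 to 0.35, below 0 without footpad replicate 1 or flank replicate 3, and that of Tmem63b from -0.023 to 0.11, below 0 without footpad replicate 2. The cause of these changes was not tested. Over all genes, 590 were higher and 248 lower in edgeR, 1685 and 1044 in DESeq2, and 0 in both directions without footpad replicate 3. With 3 tumors per site an exact permutation test of a single gene cannot go below p = 0.1, and Piezo2, Trpv4, Trpc1 and Kcnk2 rest on at most 358 reads per tumor.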
